A study of Mus musculus with 304 samples.

Results

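The genes described here are 9 genes of zinc and copper handling out of 22800 genes counted: the zinc exporters Slc30a1, Slc30a3 and Slc30a4, the zinc importer Slc39a10, the metallothioneins Mt1, Mt2 and Mt3, the metal-sensing transcription factor Mtf1 and the copper chaperone Atox1. They were chosen by name, and all 9 symbols were found in the count table. The cells were mouse dentate granule cells, the neurons whose mossy fibre axons reach area CA3. They were sampled by Patch-seq, in which a pipette takes up the cytosol of 1 neuron and that material becomes 1 sequencing library. Kainic acid, an agonist of glutamate receptors that provokes seizures, was given as 70 nl of a 5 mM solution into the hippocampus. The day 14 group (Kainate_DG, 29 cells) was taken 14 days later with no side given, the day 1 group (KA1_DG_ipsi, 58 cells) 1 day later on the injected side, and the control group (DG, 31 cells) came from mice with no injection. In a separate experiment an adeno-associated virus (AAV) carried either Id2, a helix-loop-helix protein that inhibits other transcription factors (Id2_OE, 71 cells), or green fluorescent protein (GFP_Control, 59 cells), and cells were taken 1 month afterwards. The sources used here do not give the promoter of the virus or the age, sex and strain of the mice.

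Granule cells are the best known zinc-releasing neurons of the brain. The Slc30a3 protein (ZnT3) loads zinc into the glutamate vesicles of their mossy fibres, Slc30a1 (ZnT1) exports zinc across the plasma membrane, Slc30a4 (ZnT4) moves it into intracellular vesicles, and Slc39a10 (ZIP10) brings it into the cytosol. Metallothioneins are small cysteine-rich proteins that bind zinc and copper, with Mt3 the form enriched in brain, and Mtf1 is the factor that raises Mt1, Mt2 and Slc30a1 transcription when free zinc is high, through the metal response element. Atox1 hands copper to the copper pumps of the secretory pathway.

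Levels are in CPM, that is reads of a gene per 1000000 reads after the reads of a group's cells were summed. No label names an animal, so each group is 1 sample, no test was made, and intervals cover the counting of reads (exact Poisson, 95%) or of cells (exact Clopper-Pearson, 95%) and not differences between mice. A gene was called higher or lower in a comparison when 3 log2 ratios had 1 sign and the smallest was at least 1 in size, that is 2-fold. The first ratio used summed reads, the second the mean over cells of each cell's CPM, and the third summed reads after each cell was thinned to 100000 reads, each with 1 CPM added. Median depth was 7615490 reads per cell at day 14, 6834550 at day 1 and 1738610 in controls, and 3317230 with Id2 and 3957790 with GFP. The titles of kainate and control cells run in different series, and those of day 14 and day 1 cells do not overlap, so in these comparisons a batch, if there was one, and the group cannot be told apart. The titles of the virus experiment form 2 sets, up to 95 and after 95, which each hold Id2 and GFP cells, and values are given within each.

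The 14 granule cell markers summed to 1648 CPM at day 14, 1752 CPM at day 1 and 3930 CPM in controls, and to 2987 CPM with Id2 and 4325 CPM with GFP. All 14 had reads in each group except Lct, which was at 0 in controls. The 14 microglia markers summed to 6660 CPM at day 14, 808 CPM at day 1 and 3715 CPM in controls, and to 606 CPM with Id2 and 174 CPM with GFP. The 13 astrocyte markers stayed between 105.6 CPM at day 1 and 300.0 CPM with Id2. Of them, 9 had reads at day 14, 10 at day 1, 9 in controls, 13 with Id2 and 12 with GFP. Cells at or above 1000 CPM of these markers numbered 1 at day 14, 2 at day 1, 2 among controls, 3 with Id2 and 2 with GFP. Microglia markers reached the same limit in 20 of 29 day 14 cells, 8 of 58 day 1 cells and 17 of 31 controls. With the virus, 11 of 71 Id2 cells and 2 of 59 GFP cells did so. Granule cell markers stayed under that limit in 10 day 14 cells, 19 day 1 cells and 2 controls, and in 7 Id2 cells and 1 GFP cell. Endothelial and pericyte markers reached at most 54.0 CPM, in Id2 cells. In such sums, fewer cells with a transcript and less of it per cell cannot be told apart. Shares of cells are therefore given beside the levels of the members. Id2 itself had 37369 CPM in Id2 cells, from 1446 to 105869 CPM per cell, against 93.2 CPM in GFP cells, from 0 to 575 CPM per cell, and no cells of these groups overlapped.

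The promoters of the 3 members that Mtf1 is best known to drive are shown first, since the metal response element links the sensor to the metallothioneins measured below. The sequences are from RefSeq on GRCm38.p6, 5′ to 3′ on the gene's strand, from 250 bases before to 50 bases after the annotated start. Capitals mark the core of the element, TGCACNC or TGCGCNC, searched on both strands. The Mt1 window is chr8:94178839-94179138 (plus strand), the Mt2 window chr8:94172368-94172667 (plus strand) and the Slc30a1 window chr1:191906531-191906830 (plus strand).
Mt1: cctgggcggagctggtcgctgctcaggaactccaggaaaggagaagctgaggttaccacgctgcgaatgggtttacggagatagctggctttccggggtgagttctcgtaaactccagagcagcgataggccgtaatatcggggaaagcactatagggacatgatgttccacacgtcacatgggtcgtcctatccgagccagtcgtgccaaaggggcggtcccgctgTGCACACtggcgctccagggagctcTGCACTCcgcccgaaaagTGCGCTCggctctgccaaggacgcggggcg
Mt2: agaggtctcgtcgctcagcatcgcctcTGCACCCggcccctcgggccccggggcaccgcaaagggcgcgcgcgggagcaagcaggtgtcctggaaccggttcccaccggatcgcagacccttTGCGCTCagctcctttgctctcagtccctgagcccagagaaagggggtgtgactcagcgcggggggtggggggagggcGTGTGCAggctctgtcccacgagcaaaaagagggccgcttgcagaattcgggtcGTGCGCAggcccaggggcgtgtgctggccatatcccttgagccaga
Slc30a1: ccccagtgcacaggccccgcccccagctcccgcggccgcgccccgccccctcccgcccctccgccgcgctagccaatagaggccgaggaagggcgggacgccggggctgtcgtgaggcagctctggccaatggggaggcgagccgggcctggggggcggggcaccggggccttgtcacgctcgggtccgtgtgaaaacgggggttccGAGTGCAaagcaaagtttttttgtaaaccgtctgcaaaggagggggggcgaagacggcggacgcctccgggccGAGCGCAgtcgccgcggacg

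The Mt1 window held 3 matches, all on the gene's strand, beginning 23 bases before the start and 2 and 20 bases after it. The Mt2 window held 4, of which 2 lie on the gene's strand, and the Slc30a1 window held 2, both on the opposite strand. Slc30a4 had 3 matches, Mt3 had 1, and Slc30a3 had 1 in 1 of its 2 listed promoters. The windows of Slc39a10, Mtf1 and Atox1 held none. Of all 32851 promoters of this length, 25.7% held at least 1 match, 7.11% at least 2, 1.97% at least 3 and 0.517% at least 4. A match is a run of letters and not a measured binding site. Positions are counted from the RefSeq start. The gene spans given below come from another annotation, GENCODE, whose starts differ for some members.

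**Figure D1:**
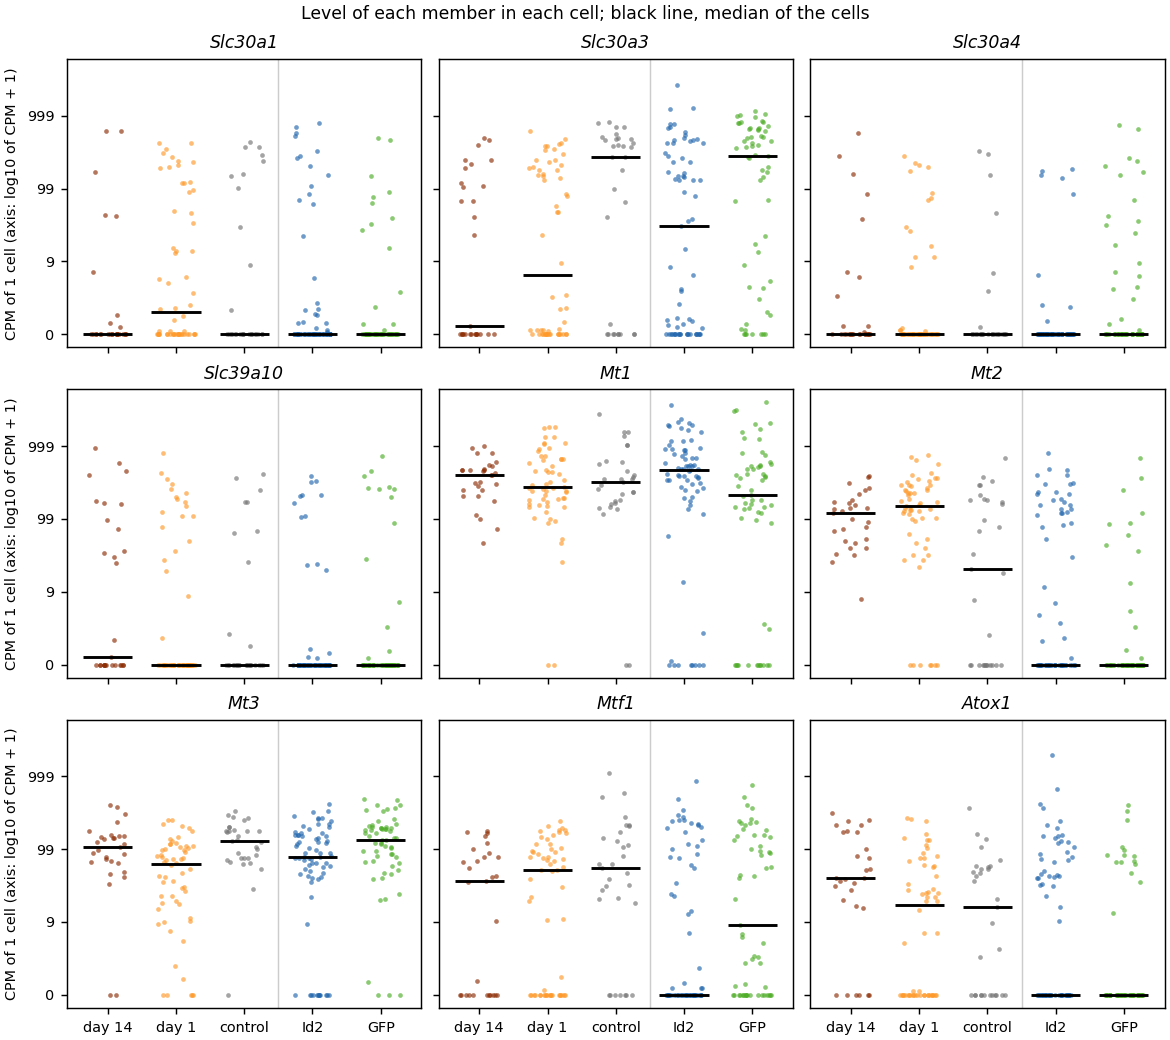
CPM of each of the 9 members in each of the 248 cells, on an axis of log10 of CPM + 1, in 5 groups; each dot is 1 cell and the black line the median of the cells. Slc30a3 has a median of 0.288 CPM at day 14, 5.42 CPM at day 1 and 269 CPM in controls, while the 3 transporters Slc30a1, Slc30a4 and Slc39a10 lie at or near 0 in most cells of each group.

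Slc30a3, the vesicular zinc transporter, had a lower level in CPM at both times after kainate. It had 98.3 CPM at day 14 (97.1 to 99.5), 141 CPM at day 1 (140.0 to 142) and 308 CPM in controls (304 to 312). Per cell, the lowest, median and highest values were 0, 0.288 and 501 CPM at day 14, 0, 5.42 and 619.6 CPM at day 1, and 0, 269 and 824 CPM in controls. The groups overlapped over nearly their whole range, since each held cells with no read and cells above 100 CPM, while the medians lay far apart. A read was found in 51.7% of cells at day 14 (32.5% to 70.6%), 68.97% at day 1 (55.5% to 80.5%) and 70.97% in controls (52.0% to 85.8%). In thinned cells, which had equal reads, the shares were 48.3% at day 14, 48.3% at day 1 and 72.4% in controls. At least 100 CPM was reached by 10 of 29 cells at day 14, 22 of 58 at day 1 and 18 of 31 controls.

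The log2 ratios of Slc30a3 at day 14 against control were -1.64 by summed reads, -1.56 by the mean over cells and -1.71 in thinned cells, a level 3.13-fold lower. At day 1 against control they were -1.12, -1.36 and -1.52, a level 2.18-fold lower. Slc30a3 was called lower in both comparisons, which share their control cells. Between day 14 and day 1 the ratios were -0.52, -0.20 and -0.19, and the gene was not called. Without the cells that held under 1000 CPM of granule cell markers, an alternative chosen after seeing the data, the log2 ratio was -1.16 at day 14 (19 against 29 cells) and still called, and -0.77 at day 1 (39 against 29 cells) and not called. The summed granule cell markers were lower after kainate as well, and their part in the Slc30a3 values was not tested beyond this. Control cells differed among themselves: the 22 with J titles had 251 CPM and the 9 with other titles 432 CPM. Against the J-titled cells alone, the day 14 ratio was -1.34 and called, and the day 1 ratio was -0.83 and not called. The day 1 call was also lost with failed cells added (-0.99) and without microglia-rich cells, those at or above 1000 CPM of microglia markers (-0.87, 50 against 14 cells).

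With Id2, Slc30a3 had 332 CPM (330.3 to 335), against 367 CPM with GFP (365 to 369.7). Per cell, the lowest, median and highest values were 0, 29.9 and 2647 CPM with Id2, against 0, 283 and 1176 CPM with GFP. The cells overlapped widely, and 1 Id2 cell carried 30.9% of all Slc30a3 reads of its group. The log2 ratios were -0.14, -0.67 and -0.67, and the gene was not called. Without the highest cell of each group the ratio by summed reads was -0.56, and without the deepest 10% of cells it was -1.08 and the gene was called lower. A read was found in 70.4% of Id2 cells (58.4% to 80.7%), against 88.1% of GFP cells (77.1% to 95.1%).

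Slc17a7 (VGLUT1), which loads glutamate into the same vesicles, was not called in any comparison. It had 645 CPM at day 14, 438 CPM at day 1 and 549.9 CPM in controls, and 275 CPM with Id2 against 491 CPM with GFP. The AP-3 adaptor, which sorts ZnT3 to vesicles, is made of subunits that include Ap3d1 and Ap3b2. Ap3d1 had 248 CPM at day 14, 196 CPM at day 1 and 182 CPM in controls, and 187 CPM with Id2 against 224 CPM with GFP. Ap3b2, the neuronal beta subunit, had 185 CPM at day 14, 168 CPM at day 1 and 314 CPM in controls, and 131 CPM with Id2 against 208 CPM with GFP. Neither subunit was called in any of the 4 comparisons.

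**Figure D2:**
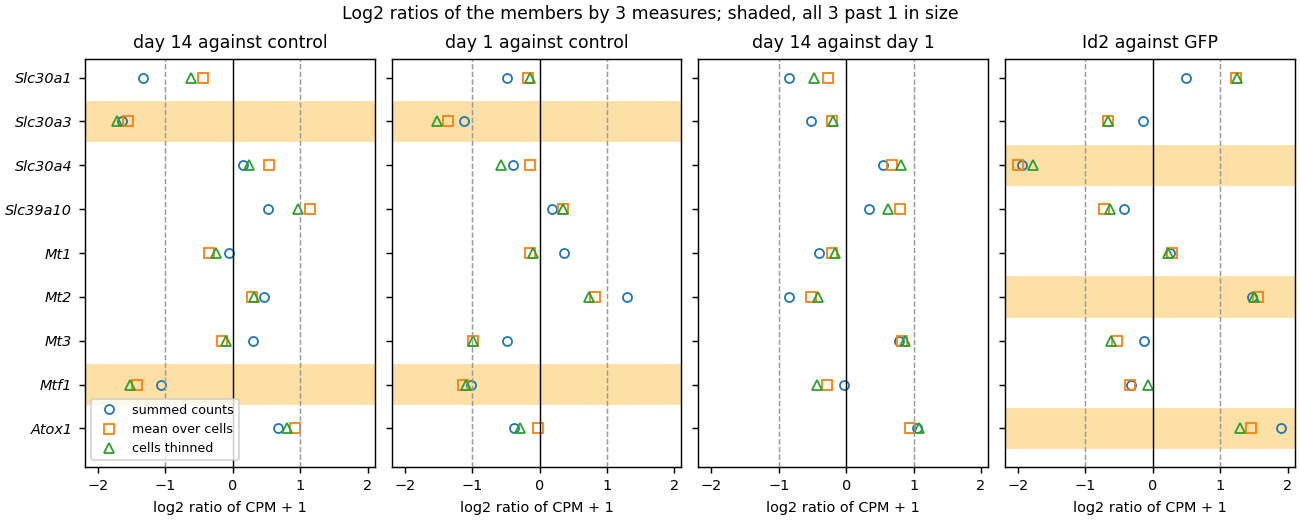
Log2 ratios of CPM + 1 of the 9 members in the 4 comparisons, by summed reads (circles), by the mean over cells (squares) and in thinned cells (triangles); dashed lines mark a log2 ratio of 1 in size and shaded rows are called members. Slc30a3 and Mtf1 are shaded in both comparisons of kainate with control, no member at day 14 against day 1, and Slc30a4, Mt2 and Atox1 in Id2 against GFP.

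Slc30a4 had a lower level with Id2 than with GFP. It had 9.91 CPM with Id2 (9.53 to 10.3), against 41.1 CPM with GFP (40.2 to 41.9), a level 4.14-fold lower. The lowest and median values were 0 CPM in both groups, and the highest were 184 CPM in an Id2 cell and 737 CPM in a GFP cell. A read was found in 9 of 71 Id2 cells, or 12.7% (5.96% to 22.7%), against 22 of 59 GFP cells, or 37.3% (25.04% to 50.9%). In thinned cells the shares were 8.45% with Id2 against 23.7% with GFP. Most cells of both groups had no read, so the cells overlapped. The log2 ratios were -1.95, -2.00 and -1.78, and Slc30a4 was called lower. Among titles up to 95 the levels were 10.2 CPM with Id2 against 34.8 CPM with GFP, and among titles after 95 they were 9.35 CPM against 65.4 CPM.

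After kainate, Slc30a4 had 31.6 CPM at day 14, 21.3 CPM at day 1 and 28.4 CPM in controls. It was found in 11 of 29 cells at day 14, 18 of 58 at day 1 and 7 of 31 controls, and the median cell was at 0 in all 3 groups. The highest cell by reads held 53.5% of the reads at day 14 and 31.1% in controls. The ratio at day 14 against control was 0.15 with all cells, -0.41 without the highest cell of each group and -0.09 without the deepest 10% of cells. The gene was not called in any comparison of the kainate experiment.

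Slc30a1 was found in 9 of 29 cells at day 14, 34 of 58 at day 1 and 11 of 31 controls. Its level was 32.4 CPM at day 14 (31.7 to 33.1), 59.1 CPM at day 1 (58.4 to 59.8) and 82.9 CPM in controls (80.8 to 85.1). The median cell was at 0 at day 14, 1.01 CPM at day 1 and 0 in controls, with highest cells of 610.4, 425 and 438 CPM in the same order. The day 1 share of 58.6% (44.9% to 71.4%) stood above the 31.03% at day 14 (15.3% to 50.8%) and the 35.5% in controls (19.2% to 54.6%), with intervals that overlap. In cells thinned to equal depth the shares were 20.7% at day 14, 43.1% at day 1 and 34.5% in controls. The log2 ratios at day 14 against control, -1.33, -0.44 and -0.62, differed in size and the gene was not called. At day 14, 1 cell carried 54.2% of the reads, and without the highest cell of each group the ratio by summed reads was -2.24.

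With Id2, Slc30a1 had 43.7 CPM, against 30.7 CPM with GFP, and it was found in 36.6% of Id2 cells (25.5% to 48.9%), against 25.4% of GFP cells (14.98% to 38.4%). The ratios were 0.49, 1.23 and 1.25, and the gene was not called. The 2 title sets went in opposite directions, with 27.6 CPM against 36.6 CPM among titles up to 95 and 77.3 CPM against 8.14 CPM among titles after 95. GFP cells, with 30.7 CPM, were below control cells, with 82.9 CPM, although these 2 groups come from different experiments and title series.

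Slc39a10, the importer, had 84.7 CPM at day 14 (83.5 to 85.8), 66.8 CPM at day 1 (66.02 to 67.5) and 58.6 CPM in controls (56.8 to 60.5). It was found in 15 of 29 cells at day 14, 20 of 58 at day 1 and 10 of 31 controls, with highest cells of 945, 805 and 407 CPM in that order. The log2 ratios at day 14 against control were 0.52, 1.14 and 0.97, and the gene was not called. Its control value came almost wholly from J-titled cells, which had 85.7 CPM, whereas the 9 other control cells had 0.0471 CPM. Against J-titled controls alone the day 14 ratio was -0.02. With Id2 it had 34.3 CPM, against 46.4 CPM with GFP, and it was found in 22.5% of Id2 cells and 23.7% of GFP cells.

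**Figure D3:**
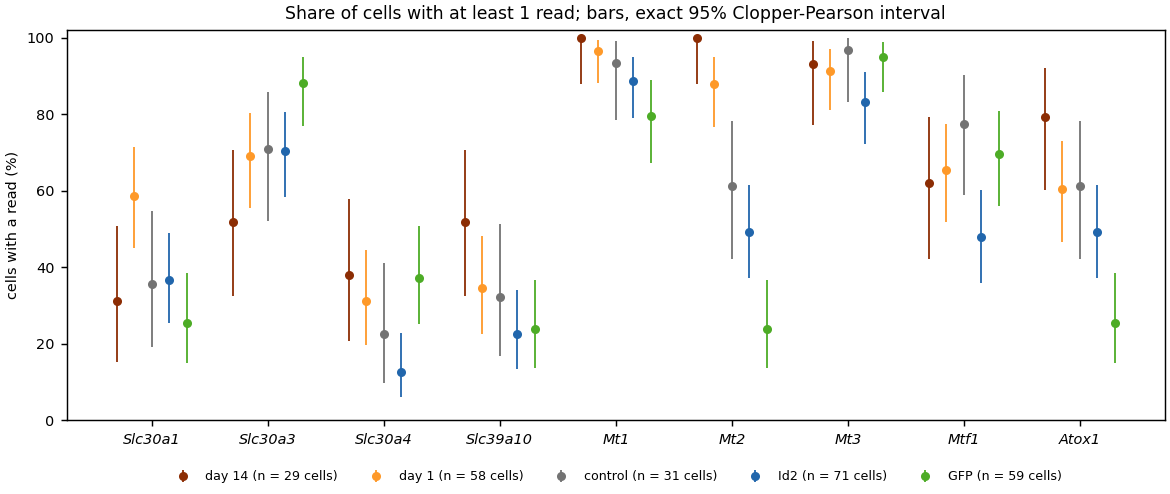
Percentage of cells with at least 1 read of each member in the 5 groups, with exact 95% Clopper-Pearson intervals that treat cells as independent draws. Mt2 was found in 100% of cells at day 14, 87.9% at day 1 and 61.3% of controls, and in 49.3% of Id2 cells against 23.7% of GFP cells.

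Mt1 was the metallothionein with the most reads in each of the 5 groups, and its level was not called in any comparison. It had 381 CPM at day 14 (379 to 384), 506 CPM at day 1 (504 to 508) and 395 CPM in controls (390.04 to 399.6), and 616 CPM with Id2 (613 to 619) against 513 CPM with GFP (511 to 516). The lowest, median and highest cells had 45.8, 397 and 985 CPM at day 14, 0, 271 and 1836 CPM at day 1, and 0, 324 and 2770.03 CPM in controls. They had 0, 460.5 and 3647 CPM with Id2, against 0, 212 and 3960.02 CPM with GFP. All groups overlapped, and the highest cells were those of the virus experiment. The log2 ratios were -0.05, -0.35 and -0.25 at day 14 against control, 0.36, -0.14 and -0.09 at day 1 against control, and 0.26, 0.28 and 0.22 with Id2 against GFP. The day 1 values differed in sign between the 3 ratios, and against the 9 control cells with other titles, which had 163 CPM, the ratio was 1.22 at day 14 and 1.62 at day 1, both called.

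Mt2 is the member whose share of cells with a read ranged most widely over the 5 groups. A read was found in 29 of 29 cells at day 14, or 100% (88.1% to 100%), in 87.9% at day 1 (76.7% to 95.0%) and in 61.3% of controls (42.2% to 78.2%). In thinned cells the shares were 96.6%, 87.9% and 58.6% in the same order. The level was 119.4 CPM at day 14 (118.1 to 120.8), 215 CPM at day 1 (214 to 217) and 86.8 CPM in controls (84.6 to 89.1). The lowest, median and highest cells had 6.94, 119.8 and 388 CPM at day 14, 0, 147 and 755 CPM at day 1, and 0, 19.4 and 687 CPM in controls. The day 14 cells stood apart at the low end, with none at 0, while the upper ends of the 3 groups overlapped. The log2 ratios were 0.46, 0.29 and 0.31 at day 14 and 1.30, 0.82 and 0.73 at day 1, each against control, and Mt2 was called in neither. By summed reads alone its level at day 1 was 2.48-fold that of controls.

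With Id2, Mt2 had 73.4 CPM (72.4 to 74.4), against 25.8 CPM with GFP (25.2 to 26.5), a level 2.84-fold higher. It was found in 35 of 71 Id2 cells, or 49.3% (37.2% to 61.4%), against 14 of 59 GFP cells, or 23.7% (13.6% to 36.6%). In thinned cells the shares were 40.8% with Id2 against 16.9% with GFP. The median cell was at 0 in both groups, and the highest cells had 811 CPM with Id2 and 693 CPM with GFP. At least 100 CPM was reached by 23 of 71 Id2 cells, against 4 of 59 GFP cells. Mt2 was called higher, with log2 ratios of 1.47, 1.55 and 1.49. Among titles up to 95 the levels were 88.2 CPM with Id2 against 32.4 CPM with GFP, and among titles after 95 they were 42.5 CPM against 0.439 CPM. Mt2 was called in each of the 15 alternatives for this comparison. Of these, the mean over cells, thinned cells, no filter and 0.1 CPM added could not lose the Mt2 call. Without the cells rich in microglia markers its ratio was 1.30, and without those rich in astrocyte markers 1.46. GFP cells were themselves below control cells, with 25.8 CPM against 86.8 CPM.

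Mt2 shares 432 exonic bases, or 73.5% of its own, with the antisense gene Gm45774 of the opposite strand. Gm45774 was not among the genes counted. The sources used here do not say whether counting was by strand. Reads of that gene and of Mt2 within the shared bases therefore cannot be told apart, and each Mt2 value above carries this limit.

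Mt3, the brain form, was found in most cells of each group, from 83.1% with Id2 to 96.8% in controls. It had 134 CPM at day 14 (133 to 135), 77.2 CPM at day 1 (76.4 to 78.03) and 108.8 CPM in controls (106.4 to 111.4), and 116.7 CPM with Id2 (115.4 to 118.03) against 128.4 CPM with GFP (126.9 to 129.9). The lowest, median and highest cells had 0, 104.6 and 402 CPM at day 14, 0, 61.7 and 249.5 CPM at day 1, and 0, 128.05 and 336 CPM in controls. The groups overlapped, and the day 1 cells had the lowest median of the 3. The log2 ratios at day 1 against control were -0.49, -0.99 and -0.98, and at day 14 against day 1 they were 0.79, 0.82 and 0.88, so both fell short of a call. With Id2 the median cell had 77.8 CPM, against 132 CPM with GFP, and the ratios were -0.14, -0.54 and -0.62.

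All 3 metallothioneins were found together in 27 of 29 cells at day 14, or 93.1%, in 79.3% at day 1 and in 51.6% of controls. The share was 42.3% with Id2 against 20.3% with GFP. Cells with Mt1 but no Mt2 read numbered 0 at day 14, 6 at day 1 and 12 among controls, and 29 with Id2 against 35 with GFP. Cells with Mt2 but no Mt1 numbered at most 2 in any group. No cell lacked all 3 at day 14, at day 1 or among controls, while 3 Id2 cells and 1 GFP cell did. The 3 genes lie side by side on chromosome 8 of GRCm38, Mt3 at chr8:94152607-94154146, Mt2 at chr8:94172664-94173568 and Mt1 at chr8:94179082-94180327, all on the plus strand. The other members lie apart, Slc30a1 at chr1:191906767-191913247 and Mtf1 at chr4:124802104-124849800 on the plus strand, and Slc30a3 at chr5:31086106-31108237, Slc30a4 at chr2:122681233-122702663, Slc39a10 at chr1:46807544-46892852 and Atox1 at chr11:55446641-55461239 on the minus strand.

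Mtf1, the zinc sensor, had a lower level in CPM at both times after kainate. It had 61.0 CPM at day 14 (60.1 to 62.0), 62.7 CPM at day 1 (62.0 to 63.4) and 129 CPM in controls (125.8 to 131). The lowest, median and highest cells had 0, 35.6 and 176 CPM at day 14, 0, 50.1 and 242 CPM at day 1, and 0, 54.4 and 1092 CPM in controls. The medians lay close together and the groups overlapped, whereas the upper ends differed, with 5 of 29 cells at day 14, 14 of 58 at day 1 and 12 of 31 controls at or above 100 CPM. A single control cell carried 27.9% of the control reads. The log2 ratios were -1.06, -1.42 and -1.52 at day 14 and -1.02, -1.14 and -1.09 at day 1, each against control, and Mtf1 was called lower in both. The call was lost at both times with 10 CPM added in place of 1, with failed cells added, without the deepest 10% of cells and against either title set of controls alone, and at day 1 also without the highest cell of each group and without microglia-rich cells. Without the cells low in granule cell markers the ratio was -1.29 at day 14 and -1.19 at day 1, and both were called. Against GFP cells in place of controls, the ratio was -0.50 at day 14 and -0.46 at day 1.

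With Id2, Mtf1 had 69.3 CPM, against 86.8 CPM with GFP, with ratios of -0.32, -0.34 and -0.07. It was found in 47.9% of Id2 cells (35.9% to 60.1%), against 69.5% of GFP cells (56.1% to 80.8%), and in thinned cells in 39.4% against 55.9%. Mtf1 shares 721 exonic bases, or 8.09% of its own, with the protein-coding gene 1110065P20Rik of the opposite strand. That gene was also the one most alike to it across cells, with r of 0.50. With no strand known for the counting, reads within the shared bases cannot be assigned to either gene of the pair. 1110065P20Rik was itself among the genes counted, with 5081 reads in controls beside 8635 for Mtf1. Slc30a1 shares 468 exonic bases (8.92%) with the antisense gene 1700034H15Rik and Slc30a4 130 bases (2.37%) with 4930417H01Rik. The same limit holds for the shared bases, and neither of these genes was among those counted.

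Atox1, the copper chaperone, had a higher level with Id2 than with GFP. It had 82.7 CPM with Id2 (81.6 to 83.8), against 21.3 CPM with GFP (20.7 to 21.9), a level 3.88-fold higher. It was found in 35 of 71 Id2 cells, or 49.3% (37.2% to 61.4%), against 15 of 59 GFP cells, or 25.4% (14.98% to 38.4%). The median cell was at 0 in both groups, and the highest cells had 1947 CPM with Id2 and 408 CPM with GFP. The highest Id2 cell by reads carried 20.8% of the group's Atox1 reads, and without the highest cell of each group the ratio was 1.77 and the gene still called. Atox1 was called higher, with log2 ratios of 1.91, 1.46 and 1.29. Among titles up to 95 the levels were 95.5 CPM against 22.7 CPM, and among titles after 95 they were 55.8 CPM against 15.8 CPM, where the gene was not called. Microglia markers were also higher in Id2 cells, and without the cells at or above 1000 CPM of them (60 Id2 and 57 GFP cells left) the ratio was 1.78 and called. Without the cells low in granule cell markers (64 Id2 and 58 GFP cells left) it was 1.58 and not called.

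After kainate, Atox1 had 89.01 CPM at day 14 (87.9 to 90.2), 42.6 CPM at day 1 (42.0 to 43.1) and 55.4 CPM in controls (53.7 to 57.2). The lowest, median and highest cells had 0, 38.7 and 309 CPM at day 14, 0, 16.1 and 267 CPM at day 1, and 0, 14.9 and 363 CPM in controls. A read was found in 79.3% of cells at day 14 (60.3% to 92.01%), 60.3% at day 1 (46.6% to 72.95%) and 61.3% of controls (42.2% to 78.2%), so the groups overlapped. The log2 ratios at day 14 against day 1 were 1.05, 0.95 and 1.09, with the second short of a call. Microglia markers were higher at day 14 than at day 1, at 6660 CPM against 808 CPM, and without microglia-rich cells (9 against 50 cells left) the Atox1 ratio was -0.65. At day 14 against control it was 0.67 with all cells and -0.25 without microglia-rich cells (9 against 14 cells).

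By title set and summed reads, the members not called with Id2 against GFP kept their direction in both sets for Slc30a3, Mt1 and Mtf1. Among titles up to 95, Slc30a3 had 387 CPM with Id2 against 403 CPM with GFP, and among titles after 95 it had 219 CPM against 229 CPM. These Slc30a3 levels lay close together, and its median cell turned. It had 5.43 CPM with Id2 against 375 CPM with GFP in the first set, and 132 CPM against 98.3 CPM in the second. For Mt1 the levels were 633 CPM against 563 CPM in the first set and 579.8 CPM against 323 CPM in the second, and for Mtf1 75.7 CPM against 87.8 CPM and 55.97 CPM against 83.2 CPM. Mt3 turned, with 113.8 CPM against 137.7 CPM in the first set and 122.8 CPM against 92.5 CPM in the second, and so did Slc39a10, with 32.96 CPM against 58.1 CPM and 37.2 CPM against 1.36 CPM.

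Counted together, 0 of the 9 members were called higher and 2 lower (Slc30a3 and Mtf1) at day 14 against control, where 17.8% of 9469 measured genes were called higher and 10.6% lower. At day 1 against control the counts were 0 higher and 2 lower (Slc30a3 and Mtf1), with the control cells shared between both comparisons, where 16.4% of 9079 genes were called higher and 10.8% lower. Between day 14 and day 1 no member was called in either direction, where 14.4% of 9823 genes were called higher and 13% lower. With Id2 against GFP, 2 of 9 were called higher (Mt2 and Atox1) and 1 lower (Slc30a4), where 6.78% of 7846 genes were called higher and 8.32% lower. The median log2 ratio of the members was 0.15 at day 14 and -0.40 at day 1 against control, beside 0.14 and 0.17 over all measured genes. It was -0.04 at day 14 against day 1 and -0.14 with Id2 against GFP, beside -0.02 and -0.10 over all measured genes. All 9 members passed the filter of a read in 20% of the cells of a group and 5 CPM in each of the 4 comparisons.

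**Figure D4:**
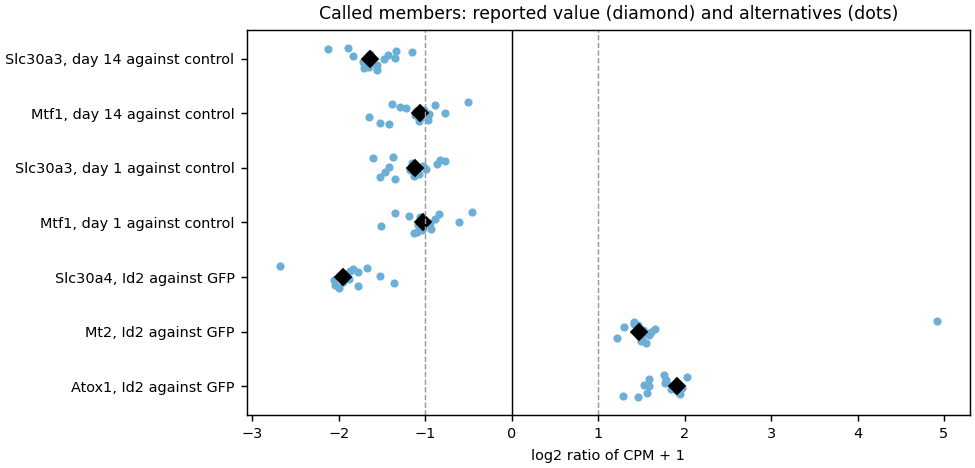
Log2 ratio of CPM + 1, by summed reads, of the 7 called results (diamonds) and of the same result under each alternative way of processing (dots); dashed lines mark a log2 ratio of 1 in size. Each alternative kept the sign. It was fixed in advance for the mean over cells, thinned cells, no filter and 0.1 or 10 CPM added. Mt2 with Id2 against GFP ran from 1.22 to 4.92.

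Per length, the members fell into a high and a low set. In control cells, CPM per kilobase of exon was 317 for Mt1, 148 for Mt2, 108.7 for Slc30a3, 102.5 for Atox1, 102.1 for Mt3, 15.8 for Slc30a1, 14.4 for Mtf1, 9.62 for Slc39a10 and 5.18 for Slc30a4. At day 14, Slc30a3 had 34.7 CPM per kilobase, below Mt1 (306), Mt2 (203), Atox1 (165) and Mt3 (125.6). With Id2, Slc30a4 was lowest at 1.81 CPM per kilobase, against 7.49 with GFP. Ordered by level, each member gave 4 pairs of neighbouring groups, and in all 36 pairs the interquartile ranges of the cells overlapped. In 23 of these pairs the lower quartile was 0 in both groups, so that overlap was fixed and says nothing of their levels. Neighbours are by construction the groups nearest in level. Groups further apart, such as Id2 and GFP for Slc30a4, were not paired.

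Likeness across cells was measured as Pearson's r of within-group ranks of thinned counts over 246 cells, among 6593 genes found in at least 20% of them. The genes compared come from the same libraries and share their depth, so the values are a description. Mt1 was most like Gadd45g (r of 0.32), Mt2 (0.31) and Fos (0.29), and Mt2 was most like Mt1, Ier2 (0.30) and Atf3 (0.27). Fos, Ier2 and Atf3 are immediate early or stress-induced genes. Slc30a3 was most like Psd (0.38), Nefm (0.33) and Fam172a (0.33). Atox1 was most like Fth1 (0.35), the ferritin heavy chain, C1qc (0.31), a complement gene of microglia, and Cox7b (0.30). The 3 transporters seen in few cells had Klf10 and 3110039M20Rik (0.27 each) and Gle1 (0.25) for Slc30a1, Sri (0.33), Coro1b (0.30) and Nasp (0.29) for Slc30a4, and Hdac5 (0.33), Exoc6 (0.31) and Vps37a (0.30) for Slc39a10. After 1110065P20Rik, Mtf1 was most like P4ha1 (0.30) and Psma2 (0.29). Among pairs of members, r was 0.31 for Mt1 and Mt2, 0.16 for Slc39a10 and Mt2, and 0.15 for Mt1 and Mt3. It was 0.02 for Mtf1 and Mt1, 0.05 for Mtf1 and Mt2, and 0.07 for Mtf1 and Slc30a1.

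Other metal and antioxidant genes were read in the same comparisons. Counts called in each list are to be read beside the shares of all measured genes called higher and lower. These were 17.8% and 10.6% at day 14, and 16.4% and 10.8% at day 1, each against control. They were 14.4% and 13% at day 14 against day 1, and 6.78% and 8.32% with Id2 against GFP. Shares of cells are given for only some of these genes, and some levels rest on few cells. Of the 7 remaining Slc30 exporters and 13 remaining Slc39 importers, 4 and 5 were measured at day 14 against control, and 1 was called, Slc39a6 (ZIP6), which had 168 CPM at day 14 against 443 CPM in controls. At day 1 against control, 3 and 7 were measured. Slc30a9 was called higher, with 187 CPM at day 1 against 80.3 CPM in controls, and Slc39a11 and Slc39a2 higher, at 49.6 against 12.97 CPM and 13.1 against 1.09 CPM. Slc39a6, at 204 against 443 CPM, and Slc39a9, at 37.8 against 101.2 CPM, were called lower at day 1. With Id2, the Golgi exporter Slc30a7 was called lower, with 19.3 CPM against 71.3 CPM with GFP, as was Slc39a14 (ZIP14), with 11.9 against 30.5 CPM, and Slc39a1 was called higher, with 8.52 against 3.36 CPM. Set against day 1, day 14 had Slc39a2 and Slc39a14 called lower, at 0.489 against 13.1 CPM and 8.13 against 20.3 CPM.

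Of 16 further genes of copper handling, 9 were measured at day 14 against control. Commd1, with 87.9 CPM at day 14 against 30.3 CPM in controls, and Cox17, which carries copper to cytochrome oxidase, with 65.9 against 30.9 CPM, were called higher. The copper importer Slc31a1, with 33.4 against 74.5 CPM, and the copper-binding prion protein gene Prnp, with 625 against 1347 CPM, were called lower. At day 1 against control, Prnp was again called lower, with 439 CPM at day 1 against 1347 CPM in controls, and Sco2 higher, with 62.8 against 18.3 CPM. Day 14 cells also had Commd1 called higher than at day 1, at 87.9 against 42.7 CPM, and Slc31a1 called lower, at 33.4 against 72.7 CPM. With Id2, Cox11 was called lower, with 9.06 CPM against 75.8 CPM with GFP, and no gene of the list was called higher.

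Iron handling genes, and antioxidant genes together with the factor NRF2, were read as 2 lists of 16 and 17 genes. At day 14 against control, 0 of 12 measured iron genes were called, and of 16 measured antioxidant genes 4 were called higher and 1 lower. Over all measured genes, 17.8% were called higher and 10.6% lower in this comparison. The 4 with the largest ratios were Nfe2l2 (NRF2 itself), with 14.0 CPM at day 14 against 1.10 CPM in controls, the cystine transporter Slc7a11, with 10.2 against 0.104 CPM, Srxn1 (sulfiredoxin), with 382 against 67.4 CPM, and G6pdx, with 49.6 against 0.67 CPM. At day 1 against control, the haem oxygenase gene Hmox1, with 27.9 CPM at day 1 against 0.0744 CPM in controls, and the iron importer Slc11a2, with 82.3 against 25.8 CPM, were called higher. Srxn1 was called higher too, with 683 CPM at day 1 against 67.4 CPM in controls, while Gpx1, with 93.4 against 294 CPM, and Gclm, with 31.4 against 102.5 CPM, were called lower. With Id2, Aco1, with 42.8 CPM against 5.20 CPM with GFP, the ferritin light chain Ftl1, with 652 against 302 CPM, Slc7a11, with 7.06 against 0.951 CPM, and Txnrd1, with 188 against 63.4 CPM, were called higher, and no gene of the 2 lists was called lower. Set against day 1, 2 iron genes were called higher and 2 lower, at day 14, among them Fth1 with 7175 CPM at day 14 against 2618 CPM at day 1, and 1 antioxidant gene, G6pdx, higher, with 49.6 CPM against 11.3 CPM. Microglia markers, at 6660 CPM against 808 CPM, moved with Fth1 there, and their part in it was not tested. By share of cells, Nfe2l2 and G6pdx were each found in 3.23% of controls, against 24.1% and 20.7% at day 14. Slc7a11 was found in 28.2% of Id2 cells against 23.7% of GFP cells, and in 4.23% against 5.08% once thinned.

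Metallothioneins also respond to glucocorticoids, and 9 of 14 such genes were measured in each comparison with a control. At day 1 against control, Fkbp5, with 29.3 CPM at day 1 against 4.79 CPM in controls, and Cdkn1a, with 209 against 79.8 CPM, were called higher, and Zbtb16, with 6.97 against 63.4 CPM, and Per1, with 53.3 against 134 CPM, lower. At day 14 against control, Tsc22d3, with 32.7 CPM at day 14 against 8.54 CPM in controls, and Cdkn1a, with 164 against 79.8 CPM, were called higher, and Sgk1, with 662 against 1680.5 CPM, and Zbtb16, with 24.97 against 63.4 CPM, lower. With Id2, Cdkn1a was called higher, with 75.6 CPM against 3.59 CPM with GFP, and the mineralocorticoid receptor gene Nr3c2 lower, with 122.8 against 275 CPM. At day 14 against day 1, 2 of 10 were called higher and 2 lower, with Fkbp5 at 1.82 CPM against 29.3 CPM. Over all measured genes, 14.4% were called higher and 13% lower there. Of the 12 genes of vesicle loading, 9 were measured in each comparison: Ap3m2 was called higher at day 14 against control (137 against 20.2 CPM), Sv2a lower at day 1 against control (98.6 against 259 CPM), Sv2c lower at day 14 against day 1 (40.6 against 114.8 CPM), and none with Id2 against GFP.

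The median log2 ratios of these lists, read beside 0.14 over all measured genes at day 14 against control, were -0.23 for the exporters, 0.64 for the importers, 0.24 for copper, 0.48 for iron, 0.40 for antioxidant, -0.71 for glucocorticoid-responsive and -0.01 for vesicle genes. Beside 0.17 over all genes at day 1 against control, they were -0.03, 0.76, 0.08, 0.18, -0.31, 0.11 and -0.33 in the same order of lists. Beside -0.02 at day 14 against day 1, they were -0.38, -0.12, 0.42, 0.11, 0.24, -0.13 and 0.41. Beside -0.10 with Id2 against GFP, they were -0.95, 0.41, -0.34, 0.05, 0.02, 0.12 and -0.50. The exporter median with Id2 rests on 3 measured genes.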

How the data were processed

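Per the labels, cytosol was drawn into a patch pipette and libraries were made with Nextera XT. The submitters' processing notes name Trimmomatic, STAR, featureCounts and GRCm38 without versions, and give neither a strand setting nor the rule for quality control. Per gene and cell the authors deposited counts, which are whole reads, and a scaled signal, which equals the counts times a factor of the cell; the names of the deposited tables state the reverse, so units were settled from the values. Levels come from the counts and the signal served as an alternative. Depth per cell ran from 32487 reads, in a control cell, to 27708900.

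Counts were summed over cells and scaled to CPM with Python 3.11.15, numpy 2.4.6, pandas 2.3.3 and scipy 1.17.1. Reads without molecular identifiers are not independent molecules. Thinning drew reads at random and lost 2 control cells. Members and gene lists were chosen with earlier results of these data known. All 9 members are named; of other lists, up to 4 measured genes per list and comparison with the largest smallest ratio, where called, and per member the 3 most alike genes; Slc17a7, Ap3d1 and Ap3b2 were added after their values were seen. Left out were 4 cells of other groups that passed. For 9 passed samples of the groups used (6 Id2, 2 GFP and 1 control) the count table held no values, so they were not analysed here. Alternatives were other ratios, pseudocounts of 0.1 and 10 CPM, no filter, the scaled signal, a total without Id2, Rn18s-rs5, Lars2 and mitochondrial genes, failed cells added, cells left out by depth, level or markers, and title sets. The genes most alike to Mt3 across cells are not reported here.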

Additional observations from a re-analysis of the deposited data

How the results depend on the processing

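The 7 called results kept their sign under every alternative run. They stayed called in 89 of those values and lost the call in the other 20. The mean over cells, thinned cells and no filter could not change the sign or the call of these results. The first 2 are part of the call itself, and all members passed the filter. Adding 0.1 CPM could not lose a call either, since it enlarges each ratio. Neither 0.1 nor 10 CPM added could change a sign. Of 540 values for all members, 503 kept the sign of the reported value. Against 2 members called at day 14 against control, 1 was called with 10 CPM added, with failed cells added, without the deepest 10% of cells and against J-titled controls, 3 by the mean over cells alone (with Slc39a10) and against GFP cells (Slc30a3, Mt2 at 2.17, and Atox1), and 4 against controls with other titles. Against 2 called at day 1 against control, 1 was called with 10 CPM added, with failed cells added (Mt2), without the deepest 10%, without the highest cell of each group, without microglia-rich cells (Slc30a4) and without cells low in granule cell markers, 0 against J-titled controls, 3 with the scaled signal (with Mt3, at -1.14) and 4 against controls with other titles. Against 0 called at day 14 against day 1, 1 was called in thinned cells (Atox1) and without microglia-rich cells (Slc30a4), and 2 without cells low in granule cell markers (Slc39a10 and Atox1). The count of 3 with Id2 against GFP stayed between 2 and 4. The cause of these moves was not tested. No paired analysis was possible because no result comes from a test and the labels name no animal. Control cells were the shallowest, and 3 reads over that group amount to 0.0447 CPM.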

Other observations

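Cells outside the groups compared also gave values. The 2 cells of the other side 1 day after kainate had 597.6 and 10.2 CPM of Slc30a3, 27.7 and 422 CPM of Mt1, and 32.1 and 24.8 CPM of Mt2, within the range of control cells for each gene. The 2 cells labelled low_DG stood very close to the control cells that carry their numbers, with Pearson's r of log2 CPM of 0.997 and 0.998 against at most 0.755 between cells used here, and were therefore not used as further cells.

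The number of the 9 members with a read in 1 cell had a median of 6 at day 14, 6 at day 1 and 5 in controls, and of 4 with Id2 against 5 with GFP. In thinned cells the medians were 6, 6 and 5, and 4 against 4. Within the 71 Id2 cells, the rank of Id2 reads had r of 0.22 with Slc30a1 and between -0.05 and 0.07 with the other 8 members, as a description over cells of 1 group that share their depth.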
